A study of Mus musculus with 4 samples.

Results

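The interferon-related gene families described here are the 72 genes, of 25289 gene columns in the count tables, whose symbols begin with Ifi, Isg or Oas, or with Irf, Gbp or Stat followed by a digit, together with Bst2 and Gvin1. The data are inDrop profiles of epithelial cells from the small intestine of adult mice; inDrop is a droplet method that gives the transcripts of each cell a common barcode. The cells had been sorted as EpCAM+, CD45-, TER119- and DAPI-, that is, as living epithelial cells without markers of leukocytes or red cells, with 5000 sorted per condition. The 2 control libraries came from Lats1fl/fl Lats2fl/fl mice, which carry both loxP-flanked alleles and no Cre recombinase. The 2 Lats-deleted libraries came from Lrig1-CreERT2 Lats1fl/fl Lats2fl/fl mice, in which tamoxifen activates Cre in cells that express Lrig1, a gene of crypt stem and progenitor cells. Both groups are labelled C57BL/6J, received 2 mg of tamoxifen into the peritoneum and were taken at day 7. The comparison addresses how these genes differ in the epithelium after loss of the Hippo kinases LATS1 and LATS2, which restrain the coactivators YAP and TAZ. The labels do not say whether the libraries of a group are separate animals, so the p-values reflect only how these libraries vary, which may be technical.

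Interferons are secreted proteins that warn cells of virus infection. Type I and type III interferons act through Janus kinases on STAT transcription factors, which join IRF9 and bind the interferon-stimulated response element, while type II interferon, interferon gamma, leads STAT dimers to the gamma-activated sequence. The genes switched on in this way include the OAS synthetases, which activate an RNA-cutting nuclease, the IFIT proteins, which bind viral RNA, the IFITM proteins, which block virus entry, the guanylate-binding proteins (GBP), the ubiquitin-like modifier ISG15, the exonuclease ISG20, and BST2 (tetherin), which holds budding virus at the cell surface. In the intestine, type III interferons act mainly on epithelial cells. Several kinds of stem cell are known to keep a set of these genes, IFITM genes among them, at a high level without infection.

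Promoters of the members were read from RefSeq (GRCm38.p6), from 250 bases before to 50 bases after each annotated start, for 55 of the 72 members; Gvin1 and the Ifi27 genes were among those without an entry there. The response element was searched as GAAA, any 2 bases and GAAA again, and the gamma-activated sequence as TTCNNNGAA, on both strands, and the 2 may overlap each other. A response element was present for 24 of the 55 members (43.6%) against 3.99% of 27025 genes with a window of the same length, and a gamma-activated sequence for 14 members (25.5%) against 9.55%. These are matches of letters, not sites shown to be used. The 7 sequences are examples from both directions of the comparison that follows and were not picked as its largest changes. Bst2, Isg15, Ifitm3, Oas1g and Isg20 were counted more after Lats deletion, and Irf1 and Irf8 less. Each sequence is written 5′ to 3′ on the gene's strand, with the matches in capitals.
Bst2 (chr8:71537423-71537722, minus strand): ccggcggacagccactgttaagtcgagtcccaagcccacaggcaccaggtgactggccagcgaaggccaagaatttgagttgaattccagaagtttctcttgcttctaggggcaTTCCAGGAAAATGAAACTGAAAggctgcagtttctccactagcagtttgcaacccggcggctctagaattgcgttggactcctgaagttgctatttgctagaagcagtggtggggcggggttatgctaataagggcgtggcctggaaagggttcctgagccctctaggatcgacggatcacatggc
Isg15 (chr4:156200769-156201068, minus strand): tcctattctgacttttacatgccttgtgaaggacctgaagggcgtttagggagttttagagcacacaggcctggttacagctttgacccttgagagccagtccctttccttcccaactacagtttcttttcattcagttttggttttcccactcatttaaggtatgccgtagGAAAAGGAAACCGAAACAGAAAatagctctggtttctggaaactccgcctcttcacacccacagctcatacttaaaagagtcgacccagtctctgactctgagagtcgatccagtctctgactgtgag
Ifitm3 (chr7:141010695-141010994, minus strand): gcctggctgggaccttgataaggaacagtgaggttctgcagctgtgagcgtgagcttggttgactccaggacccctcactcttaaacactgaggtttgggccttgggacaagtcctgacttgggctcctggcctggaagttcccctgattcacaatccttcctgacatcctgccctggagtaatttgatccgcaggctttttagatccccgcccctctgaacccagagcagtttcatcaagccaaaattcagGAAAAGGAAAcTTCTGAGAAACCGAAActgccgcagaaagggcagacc
Oas1g (chr5:120887564-120887863, minus strand): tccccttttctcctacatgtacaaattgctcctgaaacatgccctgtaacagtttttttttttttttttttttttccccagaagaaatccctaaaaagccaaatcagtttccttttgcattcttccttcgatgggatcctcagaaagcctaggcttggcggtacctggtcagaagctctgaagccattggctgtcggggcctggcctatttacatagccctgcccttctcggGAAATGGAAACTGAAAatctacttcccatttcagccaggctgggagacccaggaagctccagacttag
Isg20 (chr7:78913174-78913473, plus strand): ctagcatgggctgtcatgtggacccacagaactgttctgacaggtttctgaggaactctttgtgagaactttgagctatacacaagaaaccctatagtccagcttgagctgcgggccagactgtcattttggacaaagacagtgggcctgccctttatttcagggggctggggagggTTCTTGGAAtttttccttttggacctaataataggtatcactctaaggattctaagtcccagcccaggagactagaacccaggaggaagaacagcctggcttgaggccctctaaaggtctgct
Irf1 (chr11:53769764-53770063, plus strand): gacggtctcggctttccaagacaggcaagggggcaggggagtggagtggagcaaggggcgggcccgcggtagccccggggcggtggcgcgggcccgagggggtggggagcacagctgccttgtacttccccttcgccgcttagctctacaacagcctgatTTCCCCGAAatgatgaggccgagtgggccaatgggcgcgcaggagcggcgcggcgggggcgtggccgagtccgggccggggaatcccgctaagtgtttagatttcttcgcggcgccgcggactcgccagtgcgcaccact
Irf8 (chr8:120736108-120736407, plus strand): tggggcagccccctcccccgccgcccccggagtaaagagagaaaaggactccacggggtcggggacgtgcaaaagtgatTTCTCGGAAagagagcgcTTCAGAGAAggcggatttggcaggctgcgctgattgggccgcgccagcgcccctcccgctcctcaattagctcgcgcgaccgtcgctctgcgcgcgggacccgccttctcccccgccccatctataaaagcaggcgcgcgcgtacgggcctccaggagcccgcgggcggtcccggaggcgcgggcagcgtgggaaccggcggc
Bst2 held 2 response elements that overlap each other and a gamma-activated sequence, Isg15 held 3 overlapping response elements, and Oas1g held 2 that overlap. Ifitm3 held 2 response elements and 1 gamma-activated sequence, which overlaps the second of them, just after the annotated start. Isg20, Irf1 and Irf8 held gamma-activated sequences without a response element, 1 in Isg20 and Irf1 and 2 in Irf8; these 3 genes have further annotated starts, whose windows held neither motif. Of the members higher in that comparison, 6 of 9 had a response element and 4 of 9 a gamma-activated sequence, and of the 6 lower members with a window, 2 and 4 had them. The 2 lower members with a response element were Irf2 and Ifit1bl2, which are not printed here. The higher Ifi202b, also not printed, held only a gamma-activated sequence.

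Kept cells numbered 774 and 515 in control libraries 1 and 2 and 726 and 1289 in Lats-deleted libraries 1 and 2, with 1603796, 1228504, 3562565 and 5826856 counts. The median cell held 1708 and 1995 counts in the controls and 3715.5 and 3848 after Lats deletion, of which 9.55% and 6.84%, and 3.64% and 3.90%, were mitochondrially encoded. Between 4 and 12 barcodes were shared by any pair of libraries among kept cells. Lats1 had 20.6 and 32.6 CPM (counts scaled to a common library total) against 7.58 and 9.78, and Lats2 had 8.11 and 9.77 against 29.8 and 21.3. Whether the counted 3′ ends lie in the deleted parts is not given in the sources used here, so these counts do not check the labels. Xist was at 9.35 and 6.51 CPM against 640 and 505, and 4 Y-linked genes together at 93.5 and 108 against 34.8 and 25.4, so sex-linked transcripts separate the groups and sex and genotype cannot be told apart. Enterocyte markers summed to 29669 and 29442 CPM in the controls and 2335 and 1144 in the Lats-deleted ones. The 11 stromal markers summed to 40.5 and 30.9 CPM against 1441 and 150, and the 9 stomach markers with a column to 91.0 and 36.6 against 93.8 and 10044, so stromal RNA marks Lats-deleted library 1 and stomach RNA Lats-deleted library 2. The 15 T and NK lymphocyte markers, which include Ptprc, the gene of the CD45 antigen used in the sort, summed to 104 and 89.5 CPM against 82.2 and 37.4.

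Over all kept cells, the members split in both directions. With the counts of each library summed and tested with edgeR's quasi-likelihood test (adjusted p under 0.05, Benjamini-Hochberg over all genes), 30.8% of 12561 genes passed, 15.3% upward and 15.5% downward after Lats deletion. Of the 51 members tested, 9 were higher and 9 lower, together 35.3%, close to the share of all genes. In such sums, fewer cells of a state and less RNA per cell cannot be told apart. The median log2 fold change of the tested members was 0.24, against 0.05 for all genes. In 32 of the 51 members the 2 groups of libraries did not overlap, against 68.8% of all genes. Summed over each family, the IFI200 genes stood at 19.95 and 27.7 CPM in the controls and 139 and 72.6 after Lats deletion, and the 3 ISG genes at 53.6 and 61.0 against 199 and 153. The 12 OAS genes summed to 148 and 151 CPM against 244 and 179, while the 9 IRF factors summed to 394 and 392 against 355 and 257. When 1 control library was left out, 5 of the 18 called members passed without control 1 (Bst2, Gvin1, Ifi202b and Irf8 among them) and 6 without control 2 (Bst2, Gvin1, Ifi202b, Irf8, Isg20 and Ifit1bl2), although the 18 kept their direction. When either Lats-deleted library was left out, the 18 also kept their direction. The spread in those fits came from the 2 control libraries alone, so passing there says nothing about variation between the Lats-deleted libraries.

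**Figure D1:**
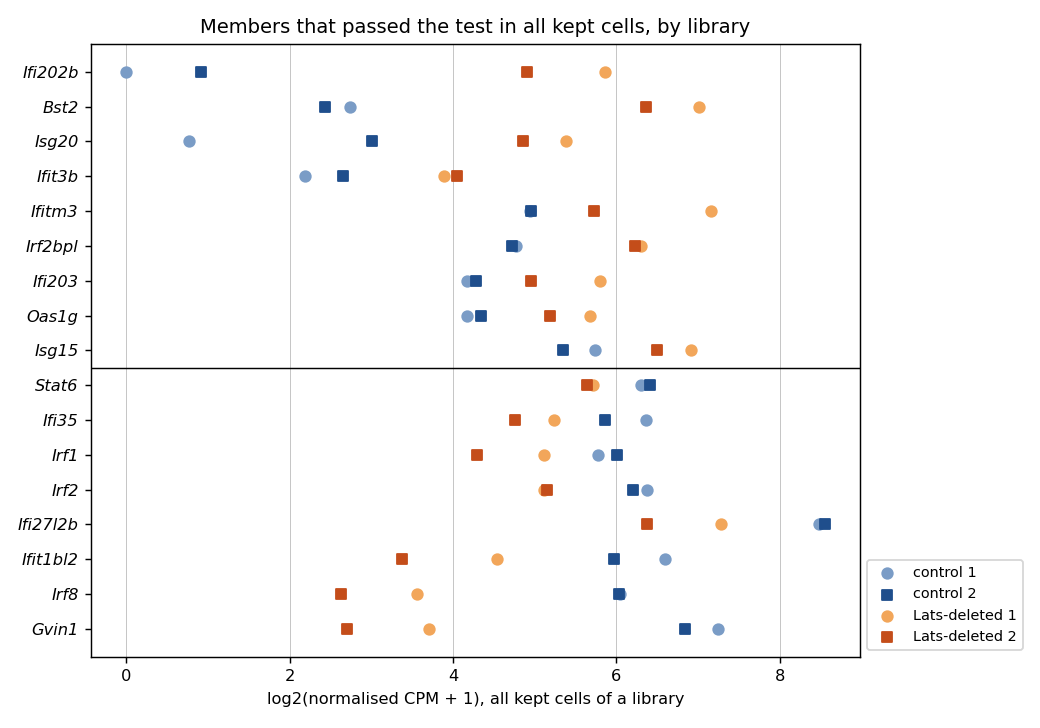
Normalised CPM of 17 of the 18 members that passed the test in all kept cells, as log2(CPM + 1) on the horizontal axis, with 1 point per library and genes ordered by fold change. Above the line, both Lats-deleted libraries lie to the right of both control libraries for 9 genes, from Isg15 (log2 fold change 1.18) to Ifi202b (6.63), and below it they lie to the left for 8 genes, from Stat6 (-0.69) to Gvin1 (-3.95).

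The surface restriction factor Bst2 (chr8:71534255-71537456, GRCm38) had 5.66 and 4.39 normalised CPM (CPM with TMM-scaled library sizes) in the controls and 129 and 81.0 after Lats deletion. Both control libraries were near the counting floor, with 8 and 5 counts, and both Lats-deleted libraries were far above them. Its log2 fold change was 4.35 (SE 0.38, edgeR adjusted p = 0.000464), and the call held in all 14 alternative settings run for single genes over all kept cells. Usp18, the protease that removes ISG15 from its targets, was found with Bst2 in 76 cells, against 34.4 by the cell counts of each library. Ifit3 was found with Bst2 in 39 cells against 15.8. These expected numbers do not allow for cell state or depth.

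The 2 ISG genes that passed encode unlike proteins. Isg15 had 52.4 and 39.5 normalised CPM in the controls and 120 and 89.7 after Lats deletion, a log2 fold change of 1.18 (SE 0.26, edgeR adjusted p = 0.0143). Isg20, which degrades single-stranded RNA, had 0.708 and 7.03 against 40.8 and 27.9, a log2 fold change of 3.23 (SE 0.66, edgeR adjusted p = 0.0113). Its control level rested on 1 and 8 counts, and the groups of both genes did not overlap. Isg20l2, a relative of Isg20 that works in ribosome assembly, stood at 7.79 and 19.3 against 21.5 and 27.3 and did not pass (adjusted p = 0.167).

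Among the sensors and effectors, Oas1g and Ifit3b were higher. Oas1g, one of several mouse copies of the OAS1 synthetase, had 16.99 and 19.3 normalised CPM in the controls and 50.3 and 35.6 after Lats deletion (log2 fold change 1.24, SE 0.30, edgeR adjusted p = 0.0207). Ifit3b had 3.54 and 5.27 against 13.9 and 15.6 (log2 fold change 1.76, SE 0.40, adjusted p = 0.0177). The groups of libraries stood apart for each gene, and Oas1g lost its call with at most 10% mitochondrially encoded counts (adjusted p = 0.0537) and with thinned cells (0.0822). Ifit3b has the near copy Ifit3, and 36 of the 97 cells with Ifit3b also had Ifit3, against 2.60 by the cell counts, so its counts are uncertain. Oas3 missed the threshold with 15.6 and 18.5 against 45.4 and 26.5 normalised CPM (adjusted p = 0.0626), as did Oasl1, which was lower in value, with 71.5 and 64.2 against 34.9 and 48.1 (adjusted p = 0.0681).

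Of the IFI200 genes, which encode DNA-binding proteins of the AIM2-like receptor family, Ifi202b and Ifi203 were higher. Ifi202b (chr1:173962568-173982744) had no count in control 1 and 1 count in control 2, and 223 and 178 counts after Lats deletion. The ratio of summed counts over scaled library sizes was 102, with a 95% counting interval of 18.2 to 4027 (edgeR adjusted p = 0.00178). Ifi202b is known for levels that differ between inbred mouse strains. Both groups carry the same strain label, and a difference in genetic background at this gene was not tested. Ifi203 had 16.99 and 18.5 normalised CPM against 54.9 and 30.0 (log2 fold change 1.25, SE 0.37, adjusted p = 0.0430), and overlaps its neighbour Mndal on the same strand, which was also higher (log2 fold change 2.66, adjusted p = 0.00833). The call of Ifi203 was lost when cells were thinned to 1000 counts (log2 fold change 0.75, adjusted p = 0.262), with at least 2000 counts per cell (0.0568) and with at most 10% mitochondrially encoded counts (0.0741).

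Ifitm3, the best-known blocker of virus entry in its family, had 29.7 and 29.9 normalised CPM in the controls and 142 and 52.1 after Lats deletion. The 2 control libraries were nearly equal and the 2 Lats-deleted libraries far apart, with library 1, which held most stromal counts, the higher. The log2 fold change was 1.70 (SE 0.48, edgeR adjusted p = 0.0386) over all kept cells and 1.08 (adjusted p = 0.0640) without the stromal-like cluster, which held 44.9% of the Ifitm3 counts of Lats-deleted library 1 in 5.31% of its counts. With at most 10% mitochondrially encoded counts its adjusted p was 0.0679. Ifitm2 had 46.0 and 48.3 against 58.5 and 49.7 and did not pass (adjusted p = 0.539).

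Irf2bpl was the remaining higher member. It carries its name as a relative of the IRF2-binding proteins. Its level was 26.2 and 25.5 normalised CPM in the controls and 78.0 and 74.2 after Lats deletion (log2 fold change 1.56, SE 0.22, edgeR adjusted p = 0.00262). Within each group the libraries differed little. Its relatives did not pass over all kept cells: Irf2bp1 had 24.8 and 14.9 against 24.9 and 30.7 (adjusted p = 0.317), and Irf2bp2 had 199 and 130 against 113 and 137 (adjusted p = 0.297).

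The largest fall among the members was that of Gvin1, a very large GTPase gene of the interferon-inducible kind (chr7:106156556-106215326). It had 151 and 113 normalised CPM in the controls and 12.1 and 5.52 after Lats deletion, which did not overlap. The log2 fold change was -3.95 (SE 0.39, edgeR adjusted p = 0.000701), and the call held in the 14 alternatives. The neighbouring gene model Gm4070 (chr7:105895139-105953967) is nearly the same sequence, sharing 8846 words of 40 bases with a Gvin1 transcript of 9005 bases. It had the same count as Gvin1 in 260 of the 274 cells with either, so the 2 genes cannot be told apart in these tables.

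Of the 7 IRF factors tested, 3 were lower and none higher, beside 15.5% and 15.3% of all genes. With so few genes the count is a description. Irf8, a factor best known from myeloid and B cells, had 65.1 and 64.2 normalised CPM in the controls and 10.8 and 5.20 after Lats deletion (log2 fold change -3.05, SE 0.37, edgeR adjusted p = 0.00158). The B lymphocyte markers moved the same way, at 280 and 132 CPM against 37.3 and 11.7 in sum, and 1 of the 6 was at 0 in each control library; the myeloid markers summed to 123 and 539 against 108 and 74.3, with Tyrobp, Fcer1g, Aif1 and C1qa at 0 in both control libraries. The B lymphocyte list includes Cd74, which in a finer clustering was among the leading genes of an enterocyte-like cluster. The sum of that list need not come from B cells. The part of either list in the fall of Irf8 was not tested. Irf2, which mostly opposes IRF1 at the same sites, had 82.1 and 72.9 normalised CPM against 33.6 and 34.6 (log2 fold change -1.19, SE 0.21, adjusted p = 0.00634). Irf1, the activator among them, had 53.8 and 63.3 against 33.6 and 18.7 (log2 fold change -1.17, SE 0.33, adjusted p = 0.0363). With either control library left out, Irf2 and Irf1 did not pass (adjusted p between 0.0629 and 0.213), nor did Irf1 with DESeq2 (0.0689) or at least 2000 counts per cell (0.0736). Irf7, which amplifies type I interferon responses, had 38.9 and 29.9 against 77.2 and 38.8 and did not pass (adjusted p = 0.182).

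Of the STAT factors, Stat6 was lower and Stat3 did not pass. Stat6, the carrier of interleukin 4 and 13 signals, had 77.9 and 84.4 against 51.6 and 48.7 (log2 fold change -0.69, SE 0.20, adjusted p = 0.0388). The call was lost with either control library left out, without the filter on low counts (adjusted p = 0.242), with DESeq2 (0.292) and with thinned cells (0.147). Stat3, which carries interleukin 6 and 22 signals, had 129 and 106 against 164 and 115 and did not pass (adjusted p = 0.515).

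Ifi27l2b, Ifit1bl2 and Ifi35 complete the lower side. Ifi27l2b, of a family of small membrane proteins, had 358 and 374 normalised CPM in the controls and 154 and 81.9 after Lats deletion (log2 fold change -1.63, SE 0.33, edgeR adjusted p = 0.0106). Ifit1bl2, a mouse relative of Ifit1, had 95.6 and 61.5 against 22.3 and 9.42 (log2 fold change -2.34, SE 0.44, adjusted p = 0.00859). Ifi35 had 81.4 and 57.1 against 36.7 and 26.0 (log2 fold change -1.16, SE 0.28, adjusted p = 0.0229; adjusted p = 0.0531 with DESeq2). Members of a family differed: Ifit3b was higher and Ifit1bl2 lower, while Ifit1, at 29.7 and 28.1 against 47.2 and 32.3, did not pass (adjusted p = 0.273), and Ifi27 was higher in value than in the controls, at 33.3 and 31.6 against 91.8 and 44.3, but missed the threshold (adjusted p = 0.0764). Of the lower members, Gvin1, Ifit1bl2, Irf1, Irf2, Irf8, Ifi35 and Stat6 overlap other gene models, and reads of overlapping genes cannot be told apart where the strand of counting is not given.

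Of the other members tested, none of the 6 GBP genes passed, against 30.8% of all genes. Gbp2 came close with 1.42 and 3.52 normalised CPM in the controls and 25.1 and 7.31 after Lats deletion (edgeR adjusted p = 0.0528). Gbp7, at 24.8 and 36.0 against 24.4 and 15.4, had an adjusted p of 0.225. The sensor Ifih1, at 54.5 and 29.9 against 36.7 and 18.7, had one of 0.300. Irf3, which starts the interferon response below the nucleic acid sensors, had 24.1 and 36.0 against 31.8 and 33.1 normalised CPM (adjusted p = 0.777). Irf9, the DNA-binding partner of STAT factors, had 65.1 and 43.9 against 52.6 and 34.6 (adjusted p = 0.448). Neither of these parts of the signalling route separated the groups. Oasl2 had 45.3 and 45.7 against 66.7 and 42.2 (adjusted p = 0.539), and Ifit1bl1 had 31.9 and 33.4 against 39.2 and 23.6 (adjusted p = 0.901). Without cells with stomach gene counts, Oas3, Irf7 and Ifi27 passed as higher (edgeR adjusted p = 0.00144, 0.00320 and 0.000708). That setting dropped cells with 2 or more counts of the stomach markers. It kept 662 of 726 cells of Lats-deleted library 1 and 274 of 1289 of Lats-deleted library 2. The 21 members that were not tested had between 4 and 76 counts over the 4 libraries. They were Gbp3, Gbp8, Gbp9, Gbp10, Gbp11, Ifi205, Ifi27l2a, Ifi44l, Ifitm1, Ifitm5, Ifitm6, Ifitm7, Irf4, Irf5, Oas1a, Oas1c, Oas1d, Oas1e, Oas1f, Oas1h and Stat4.

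Within the libraries, the members marked different cell states. Kept cells formed 14 Leiden clusters, named with the suffix -like from marker lists; doublets were not removed. The clusters rest on the same genes and differ between the groups, so the levels below are descriptions, in plain CPM of the counts of a library's cells in a cluster of at least 20 cells. Control cells fell mainly into a stem-like cluster, enterocyte-like clusters and a goblet-like cluster, whose leading genes also include the Paneth cell genes Lyz1 and Defa24 and other defensins. Lats-deleted cells fell mainly into regenerative-like clusters, cycling progenitor-like clusters, an unnamed cluster led by Wfdc18 and Duox2, a stromal-like cluster of library 1 and a stomach-like cluster of library 2. The larger cycling progenitor-like cluster, of 403 cells of which 399 are from Lats-deleted library 2, had pancreatic genes such as Ctrb1 and Ins2 as its leading genes.

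The regenerative-like clusters carried most Bst2 counts. In the one led by Krt14 and Ankrd1, the level of Bst2 after Lats deletion was 180 CPM in library 1 and 241 in library 2, and in the one led by Reg3b and Clca4a at 143 and 126. Bst2 was lower in the unnamed cluster, at 46.3 and 68.3, and in the stomach-like cluster, at 19.9, and it did not pass 21.5 in a control cluster. The first cluster held 60.9% and 55.7% of the Bst2 counts of the libraries, with 47.6% and 19.8% of all their counts. Isg15 was also high there, with 157 and 156 CPM in the first cluster, 168 and 286 in the second and 15.7 to 73.5 in control clusters. Isg20 stood at 61.9 and 62.3 in the first cluster, 30.5 and 51.7 in the second and at most 7.81 in a control cluster. Irf7 was at its highest in the cluster led by Reg3b, at 134 and 176, beside 57.1 and 72.4 in the control enterocyte-like cluster led by Ada and Apoa4. Ifi202b stood at 53.0 and 59.7 in the first regenerative-like cluster and 55.6 and 92.1 in the second, and it had 1 count over the control clusters.

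**Figure D2:**
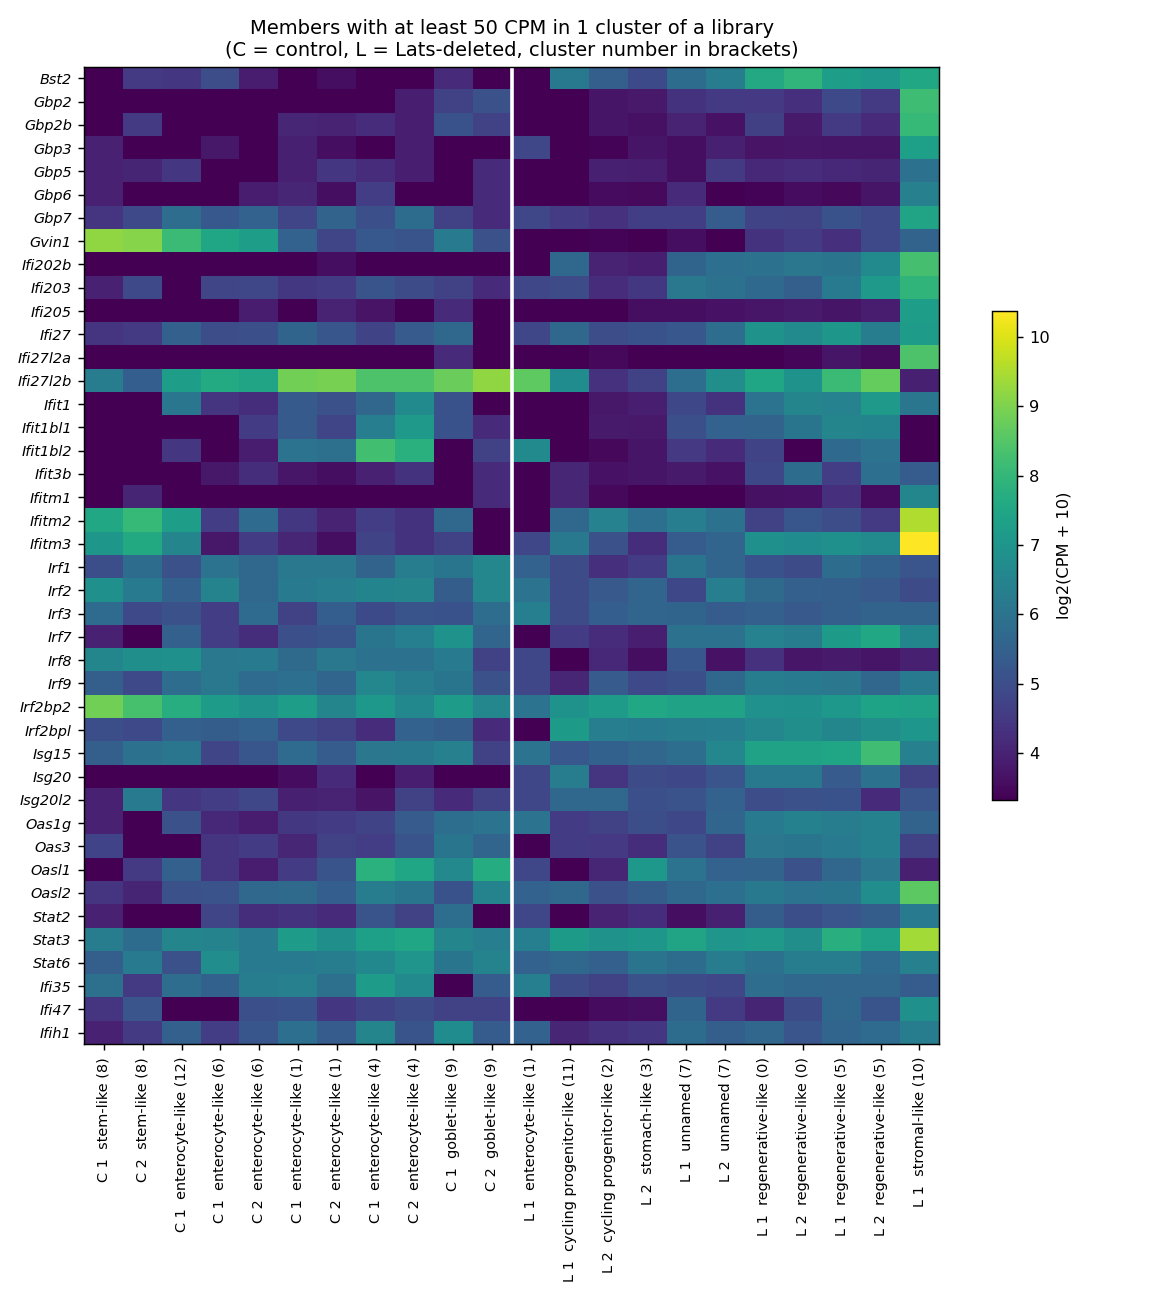
Members with at least 50 CPM in 1 or more clusters of a library (42 of 44 genes, rows by family) in the 22 library-by-cluster sums of at least 20 cells, with log2(CPM + 10) as colour. Control columns stand left of the white line. Gvin1 is brightest in the control stem-like columns, Bst2 in the Lats-deleted regenerative-like and stromal-like columns, and Ifitm3 in the stromal-like column (1317 CPM).

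Among control cells, the members divided between crypt-like and villus-like states. In the stem-like cluster, Gvin1 stood at 584 and 531 CPM in control libraries 1 and 2, Ifitm2 at 174 and 256, and Ifitm3 at 124 and 184. Gvin1 is the gene of highest fold in that cluster and helped to form it. Toward the enterocyte-like clusters Gvin1 was lower: 168 and 141 CPM in the cluster led by Apol10a and Ccl25, 36.9 and 17.6 in that led by Reg1 and Anpep, and 28.5 and 25.9 in that led by Ada and Apoa4. Another enterocyte-like cluster, of 37 cells of control 1 alone, held Gvin1 at 269 CPM, and its leading genes Aqp1, Cps1 and Aldh1b1 also lead the stem-like cluster. Irf2bp2 stood at 455 and 308 CPM in the stem-like cluster and at 82.0 to 199 in the enterocyte-like clusters. The cluster led by Ada and Apoa4, whose Apoa4 marks the upper villus, instead held Ifit1bl2 at 294 and 212 CPM, Oasl1 at 217 and 166 and Ifit1bl1 at 71.4 and 129, and these genes had at most 13.1 CPM in the stem-like cluster. Ifi27l2b was low in the stem-like cluster, at 67.4 and 32.8, and stood at 457 and 476 in the cluster led by Reg1 and at 424 and 579 in the goblet-like cluster, which mixes goblet and Paneth genes. Irf8 was spread over the control clusters, at 15.7 to 105 CPM.

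The stromal-like cluster, of 71 cells of Lats-deleted library 1 and 8 of library 2, held several members at high levels. Of these, Ifitm2, Ifitm3 and Ifi202b were also counted in other clusters, as given above. In library 1, Ifitm3 stood at 1317 CPM, Ifitm2 at 735, Stat3 at 667, Oasl2 at 381, Ifi27l2a at 328, Ifi202b at 302, Gbp2 at 280 and Ifi203 at 233. Of the Gbp2 counts of Lats-deleted library 1, 54.1% came from this cluster, and of its Ifi27l2a counts 93.9%. Bst2, at 175 CPM there, had 6.59% of its counts in that library from the cluster.

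Shares of cells with a count were compared after each cell had been thinned to 1000 counts. Bst2 was found in 0.517% and 0.194% of control cells (95% exact binomial intervals 0.141 to 1.32 and 0.00492 to 1.08) and in 11.02% and 6.98% of Lats-deleted cells (8.83 to 13.5 and 5.65 to 8.51). Within the Lats-deleted pair it was in 12.1% and 18.7% of regenerative-like cells and in 0 of 40 and 0 of 22 enterocyte-like cells, for which the exact upper limits on cells with a count are 8.81% and 15.4%, and 3 counts of the cells would be 7.50% and 13.6%. Gvin1 was found in 46.5% and 34.4% of control stem-like cells, in 7.20% and 4.76% of control enterocyte-like cells, and in 0 of 29 and 0 of 413 cycling progenitor-like cells of the Lats-deleted libraries, where the exact upper limit for 413 cells is 0.889%, and 3 counts would be 0.726%. Ifi27l2b was in 28.2% and 27.6% of control enterocyte-like cells, 19.3% and 17.9% of Lats-deleted regenerative-like cells and 1.69% of the cycling progenitor-like cells of Lats-deleted library 2. With 2 libraries a group, the exact two-sided permutation test over the 6 splits cannot go below p = 0.333, which the differences of Bst2 (8.65 percentage points) and Gvin1 (-8.45) reached. Intervals and limits cover counting error only. Without thinning, the shares over all kept cells were 0.904% and 0.971% against 34.2% and 20.7% for Bst2, and 16.8% and 15.5% against 3.99% and 1.78% for Gvin1. Barcodes under 400 counts, among which free RNA is counted, had Bst2 at 2.26 and 0 CPM in the controls and 76.5 and 94.6 after Lats deletion, so low shares in the latter may be background. The same barcodes held Gvin1 at 108 and 79.97 CPM in the controls and 34.2 and 9.90 after Lats deletion, and Ifi27l2b at 239 and 216 against 184 and 142. Low shares of both, such as that of Gvin1 in control enterocyte-like cells, may likewise be background.

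**Figure D3:**
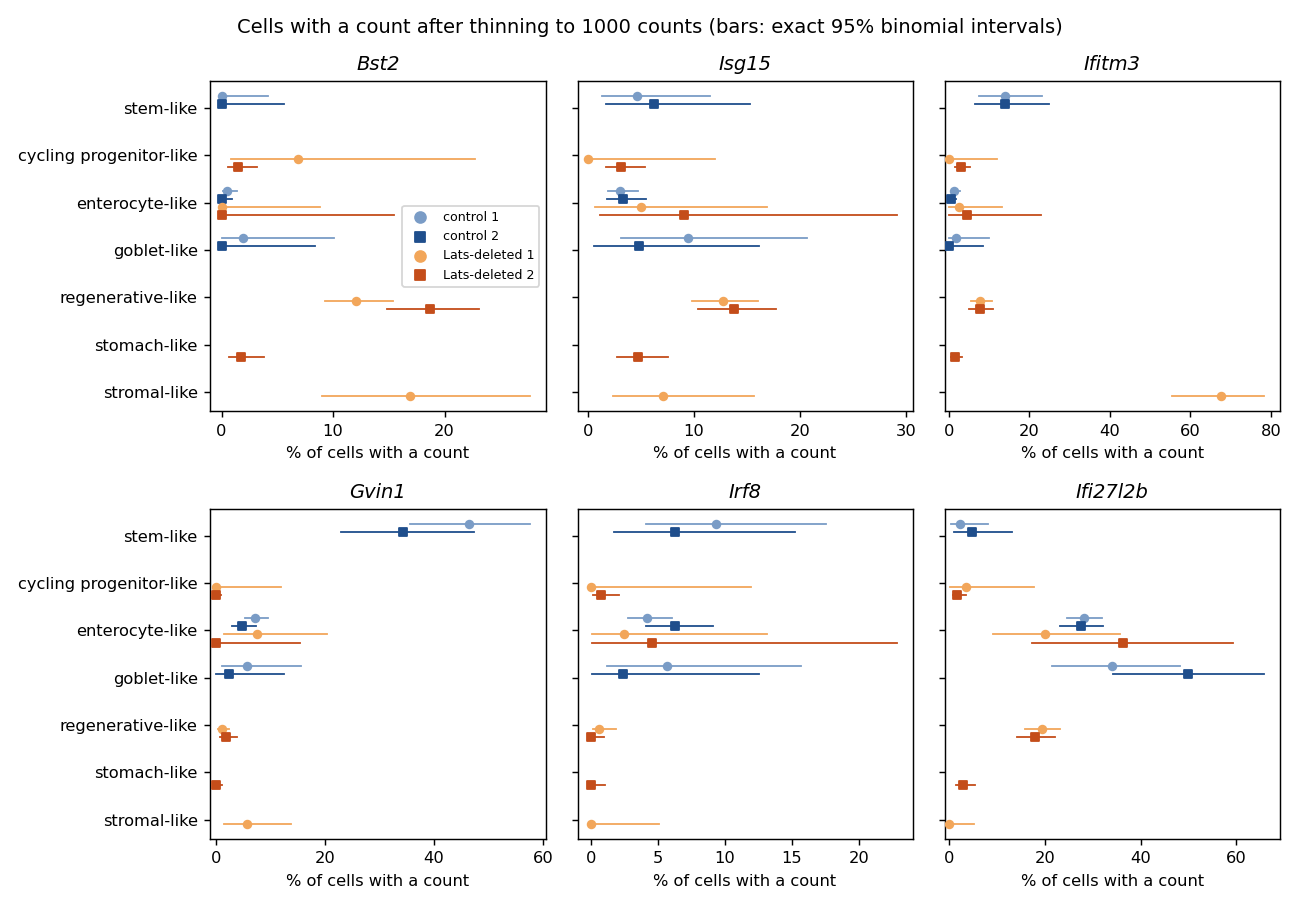
Percent of cells with a count of 6 members after thinning to 1000 counts, by cell state (rows) and library (colour), with exact 95% binomial intervals as bars. Bst2 shares are highest in the Lats-deleted regenerative-like and stromal-like cells, Gvin1 shares in the control stem-like cells (46.5% and 34.4%), and Ifitm3 shares in the stromal-like cells (67.6%).

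Stem-like and cycling progenitor-like cells were summed to compare the groups within a like class. The class held 86 and 64 control cells, from the stem-like cluster, and 33 and 418 Lats-deleted cells, nearly all from the 2 cycling progenitor-like clusters, so different clusters make up the class in the 2 groups. Of the 418 cells, 399 come from the cluster led by pancreatic genes, whose part in the results was not tested. Of 3364 genes tested, 23.4% passed, 12.4% higher and 11% lower, and of the 11 members tested 1 was higher and 6 were lower. In 10 of the 11 the groups of libraries did not overlap, against 64.9% of all genes tested. A member could enter this test mainly through one group, so the count is a description. Gvin1 had 723 and 656 normalised CPM in the controls and 53.9 and 3.06 after Lats deletion (log2 fold change -6.06, SE 0.90, edgeR adjusted p = 0.00118). Gvin1 helped to form the stem-like cluster that makes up the control side. The choice of cells therefore favoured this direction, and the p-value is a description. The 2 Lats-deleted libraries were far apart, and the log2 fold change was -7.68 without library 1 of that pair and -3.68 without library 2. Gvin1 had 0 counts in the 25 library 1 cells of the smaller cycling progenitor-like cluster. In the 399 library 2 cells of the larger one it had 1 count. Its other counts came from the remaining cells of the class. The stem-like cluster gave 4 of the 33 cells and 5 of the 418. Ifitm2 had 216 and 316 against 53.9 and 91.8 (log2 fold change -1.72, SE 0.40, adjusted p = 0.0116). Ifitm3 had 153 and 227 against 77.1 and 33.7 (log2 fold change -2.10, SE 0.49, adjusted p = 0.0119), the opposite direction to its rise over all kept cells. The Ifitm3 call was lost with DESeq2 (adjusted p = 0.0987) and without Lats-deleted library 2 (0.0742), and that of Ifitm2 with DESeq2 (0.0703). Irf8 had 104 and 130 against 30.8 and 9.18 (log2 fold change -3.22, SE 0.62, adjusted p = 0.00518), and did not pass without control 1 or control 2 (adjusted p = 0.138 and 0.204). Irf2bp2, a corepressor partner of IRF2, had 563 and 381 against 170 and 163 (log2 fold change -1.51, SE 0.33, adjusted p = 0.00881; 0.0893 without control 1). Irf2 and the higher Irf2bpl passed at adjusted p = 0.0330 and 0.0331, and lost the call without control 1 (0.600 and 0.0785) or control 2 (0.0810 and 0.0854); Irf2 also lost it without either Lats-deleted library (0.0681 and 0.0738), with DESeq2 (0.367), without the filter on low counts (0.141) and with the replicate block (0.0628). Irf2bpl also lost it with DESeq2 (0.187) and with at most 10% mitochondrially encoded counts (0.0533).

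**Figure D4:**
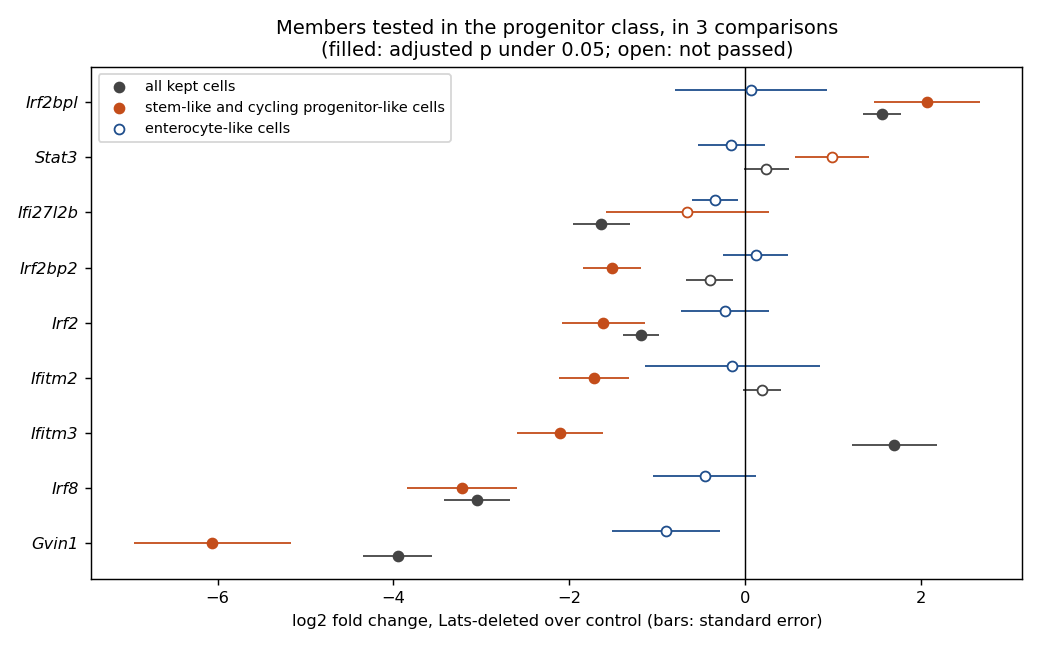
Log2 fold change, Lats-deleted over control, with its standard error, of 9 of the 11 members tested in stem-like and cycling progenitor-like cells, beside their values in all kept cells and in enterocyte-like cells where tested. Filled points passed the test. Ifitm3 lies at 1.70 in all kept cells and at -2.10 in the progenitor class, and no point for enterocyte-like cells is filled.

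In enterocyte-like cells no member passed. The class held 625 and 399 control cells and 40 and 22 Lats-deleted cells, and 0.664% of 5873 genes passed, 0.324% higher and 0.341% lower. In 15 of the 26 members the groups did not overlap, against 41.3% of genes. None of these 26 passed, 2 had an unadjusted p under 0.05, and DESeq2 called none. These were Ifit1, with 39 and 32 counts in the controls and 0 and 1 after Lats deletion, and Irf1, with 55.4 and 60.9 normalised CPM against 112 and 115 (log2 fold change 0.96, SE 0.44, edgeR adjusted p = 0.532). Bst2, with 7, 2, 0 and 1 counts, was under the filter there. Ifi27l2b had 376 and 395 against 274 and 346 (log2 fold change -0.34, SE 0.26, adjusted p = 0.814), and Gvin1 had 86.1 and 51.7 against 50.8 and 16.5 (adjusted p = 0.774).

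Whether the effect differed between the 2 classes was tested as an interaction of class and genotype, in 1 joint fit of both classes with a term for each library. This term passed for 12.5% of 4199 genes and for 2 of 16 members, Gvin1 and Irf2bp2, which is the same share. Its coefficient, in log2, was -3.79 for Gvin1 (SE 1.02, edgeR adjusted p = 0.00379), and -1.74 for Irf2bp2 (SE 0.54, adjusted p = 0.0146), negative where the change is lower in the progenitor class. The coefficient is not the difference of the separate fits, which gave Gvin1 -6.06 in the progenitor class and -0.90 in enterocyte-like cells. Without a filter on low counts neither passed (adjusted p = 0.142 and 1), and with DESeq2 Irf2bp2 did not (0.172). For Ifitm3, Irf8 and Irf1 the adjusted p of this term was 0.512, 0.0955 and 0.137. For Gvin1 the term rests on the progenitor sums, whose stem-like cluster that gene helped to form, so its value is a description.

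Some members had like levels across states. Over the 21 library-by-cluster sums other than the stromal-like one, which share libraries, log2(CPM + 10) of Bst2 was most like that of Ifi202b (Pearson r = 0.92), Irf2bpl (0.85) and Isg20 (0.83). Gvin1 was most like Irf8 (r = 0.81), Irf7 most like Ifit1bl1 and Ifit1 (both 0.82), and Isg15 most like Ifi27 (0.80) and Ifit1 (0.74). From cell to cell, Ifit1 was found with Usp18 in 56 cells against 10.5 by the cell counts of each library and with Rtp4 in 66 against 15.3. Isg15 was found with Ifit1 in 115 cells against 44.5 and with Rsad2, the viperin gene, in 136 against 60.1. Oas3 was found with Ifit1 in 65 against 21.7. Deeper cells raise such counts for any pair of genes. Ifitm2 and Gbp2 were instead found with Igfbp6, C1s1 or Serping1, which are stromal genes, in more cells than the cell counts give.

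The other genes of the pathway did not share one direction over all kept cells. Of all genes tested there, 15.3% were higher and 15.5% lower. The 10 interferon genes searched had 8, 3, 10 and 15 counts in all in the 4 libraries, Ifna1 and Ifna5 had no count, and none passed the filter for testing. Of 9 receptor and Janus kinase genes, 8 did not pass and Ifngr2, the signalling chain of the interferon gamma receptor, was lower, with 219 and 179 normalised CPM in the controls and 61.1 and 50.2 after Lats deletion (log2 fold change -1.84, SE 0.23, edgeR adjusted p = 0.00163). Ifnlr1, the type III interferon receptor, did not pass, at 12.04 and 14.1 against 21.0 and 19.5 (adjusted p = 0.153). Of 17 sensing genes, Tmem173 (STING) was higher, with 2 and 0 counts in the controls and 69 and 101 after Lats deletion, and the adaptor Mavs (log2 fold change -1.37) and the kinase Tbk1 (-0.96) were lower. Of 14 STAT inhibitors, Socs3, Socs6 and Ptpn11 were higher (log2 fold changes 1.97, 1.90 and 1.16) and none was lower. Of 12 other cytokine receptors, Il6st, the gp130 chain of the interleukin 6 family, was higher (2.11), and the prolactin receptor Prlr (-3.24) and Il13ra1 (-0.76) were lower.

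Other interferon-stimulated genes mostly did not pass, and genes of MHC class I presentation mostly fell over all kept cells. Of 25 other interferon-stimulated genes tested, 3 were higher and 1 lower, beside 15.3% and 15.5% of all genes. Their median log2 fold change was -0.03. The higher ones were Ly6e, with 265 and 309 normalised CPM in the controls and 1306 and 1053 after Lats deletion, Slfn2 (log2 fold change 3.77) and Usp18 (1.72), and the lower one was Epsti1 (-0.89). Of 5 immunity-related GTPases, Tgtp1 and Tgtp2 were higher (3.91 and 3.90), which are near copies and had almost the same counts, 1, 1, 76 and 36 for Tgtp1. Of 19 genes of MHC class I presentation, 11 were lower and none higher, with a median of -1.27, beside 15.5% of all genes lower. They include beta-2-microglobulin (B2m), with 3268 and 3138 normalised CPM against 1228 and 537, the immunoproteasome subunits Psmb8, Psmb9 and Psmb10 (log2 fold changes -2.48, -2.66 and -2.30) and the class Ib gene H2-Q1, at 416 and 380 against 24.4 and 6.01. In enterocyte-like cells none of the 18 of these genes tested passed (median -0.17), against 0.664% of all genes. In the progenitor class 3 of 13 were lower (median -0.85), against 11% of all genes. The part of cell make-up in the fall over all kept cells was not tested. The interaction of class and genotype passed for 4 of the 17 of these genes tested, against 12.5% of all genes: Psmb8, Psmb9, Psmb10 and Psme1, with coefficients of -2.12, -3.08, -2.46 and -1.92 in log2 (largest edgeR adjusted p = 0.00119). It did not pass for B2m (-0.91, adjusted p = 0.132).

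**Figure D5:**
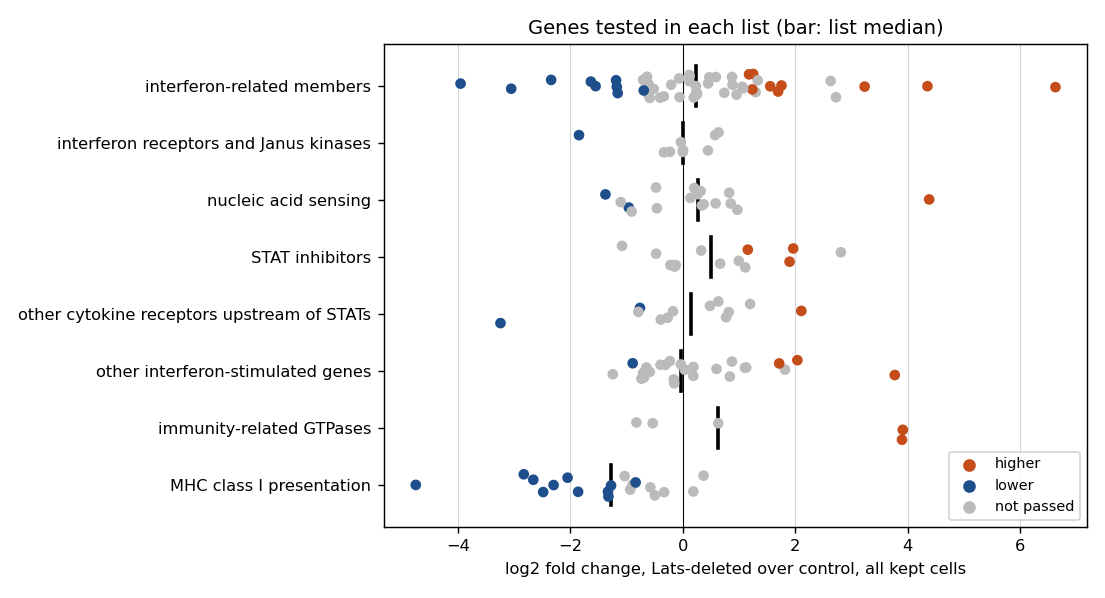
Log2 fold change, Lats-deleted over control, of the genes tested over all kept cells, with 1 point per gene in the interferon-related members and in 7 lists of other pathway genes, coloured by the result of the test, and the list median as a bar. Members lie on both sides of 0, and the genes of MHC class I presentation lie mostly below it (median -1.27).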

How the data were processed

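The deposited values are whole-number counts per gene and barcode, 1 table per library; per the submitters' processing notes, which give no roles, the tools were Bowtie 1.1.1.1, SAMtools 1.3.1 and RSEM 1.3.0, with mm10. Whether counts are of unique molecules, and whether strand was used, is not given in the sources used here. The 4 tables held 4398, 3947, 4995 and 16791 barcodes with 2872497, 2247269, 4731529 and 9191916 counts. Barcodes with 1000 or more counts, 300 or more genes and no more than 30% mitochondrially encoded counts were kept.

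Cells were clustered with scanpy 1.11.5 and leidenalg 0.10.2 (2000 variable genes, 30 principal components, 15 neighbours, resolution 1), and clusters were named from marker lists. Counts summed per library were tested with edgeR 4.0.16 in R 4.3.3 (quasi-likelihood, TMM scaling, filterByExpr, Benjamini-Hochberg over all genes); fits within a class of cells needed 20 cells in each library. DESeq2 1.42.0 was an alternative. Normalised CPM use TMM-scaled library sizes. The edgeR step was tested on simulated counts. Coordinates are GENCODE M21 (GRCm38). Members named singly passed the test or reached a mean of 20 CPM in a group, or 50 CPM in a cluster; of other lists, up to 4 genes of smallest p were named, and B2m, Psmb8, Psme1 and Gbp2 over all kept cells were added after their values were seen. The members and lists were chosen with earlier results of these data known. A few genes that entered the counts are not reported here singly.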

Additional observations from a re-analysis of the deposited data

Results flagged for a closer look

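The interaction of cell class and genotype passed for 2 of 16 members, 12.5%, which is also the share of all genes tested. In the joint fit of stem-like and cycling progenitor-like cells with enterocyte-like cells, its log2 coefficient was -3.79 for Gvin1, which cannot be told apart from Gm4070, and -1.74 for Irf2bp2. Without the filter on low counts neither passed (adjusted p = 0.142 and 1), and Irf2bp2 did not pass with DESeq2 (0.172). The progenitor class holds mostly the stem-like cluster in the controls and mostly cycling progenitor-like clusters after Lats deletion, and the enterocyte-like class has 40 and 22 cells after Lats deletion. Gvin1 helped to form that stem-like cluster, so its coefficient is a description.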

How the results depend on the processing

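Over all kept cells, the 9 higher members became 14 without a filter on low counts and 18 without cells with stomach gene counts; leaving out 1 library gave 2 to 22 higher and 3 to 13 lower members. In the progenitor class, the 1 higher member became 0 with DESeq2, 0 with at least 2000 counts per cell, 0 with at most 10% mitochondrially encoded counts and 2 without the filter, and the 6 lower members became 3 with DESeq2; leaving out 1 library gave 0 to 1 higher and 3 to 6 lower. The 2 lower members of the interaction became 0 without the filter and 1 with DESeq2. The cause was not tested. Without cells with stomach gene counts, 274 of the 1289 cells of Lats-deleted library 2 remained. The share of all genes that passed in each setting is not given here. These counts, and those with the replicate block below, therefore cannot be set against all genes.

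Some log2 fold changes that had not passed changed sign. Here, without stomach cells means without cells with stomach gene counts. Ifit1bl1 (-0.06) became 0.068 with DESeq2, 0.14 without the filter, 0.61 with at least 2000 counts, 0.26 with at most 10% mitochondrially encoded counts, 0.014 without the stromal-like cluster and 0.29 without stomach cells. Ifitm2 (0.20) became -0.15 with at least 2000 counts, -0.12 with at most 10%, -0.34 without the stromal-like cluster and -0.070 without stomach cells. Irf3 (0.12) became -0.36 with at least 2000 counts, and Irf9 (-0.34) became 0.030 without stomach cells and 0.18 with thinned cells. Leaving out 1 library gave -0.47 to 0.25 for Ifit1bl1, -0.11 to 0.45 for Irf3, -0.67 to 0.024 for Irf9, -0.11 to 0.53 for Oasl2 and -0.042 to 0.46 for Stat3. DESeq2's scaling moved the median of all genes by 0.13.

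With the replicate number as a block, 12 members were higher and 9 lower over all kept cells, and in the progenitor class 1 and 6, where Irf2 lost its call (adjusted p = 0.0628) and another member gained one. Libraries share only a number: deviations of same-numbered libraries had r = 0.0471 across genes. Leaving out the enterocyte-like cluster found in 1 control library was chosen after seeing the data; no member passed in that class then either, and the interaction was -3.93 for Gvin1 and -1.76 for Irf2bp2. Stricter cell filters for enterocyte-like cells and the 2000-count filter for the interaction were not run, since under 20 cells remained in a library.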
